A study of Mus musculus with 4 samples.

Results

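The clustered protocadherin genes are 57 protein-coding genes that lie in 3 neighbouring groups, alpha, beta and gamma, on mouse chromosome 18. RefSeq's genes on GRCm38.p6 (mm10) supplied them, by symbol (Pcdha, Pcdhac, Pcdhb, Pcdhga, Pcdhgb or Pcdhgc with a number), from among 21761 protein-coding genes. Peaks of the FLAG-MIXL1 list were taken from 200 kb before the first gene to 200 kb after the last (chromosome 18, 36730285 to 38041873), and 7 of the 9598 peaks lay there. The peaks' positions chose these 7, and the locus was picked with the list in view, so their number and places are given as a description without a test.

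The cells were mouse epiblast stem cells, a cultured pluripotent cell type of the post-implantation epiblast, from lines with an inducible Mixl1 gene that encodes a FLAG-tagged protein. Activin A at 20 ng/mL and bFGF at 10 ng/mL kept the cells, on irradiated feeder fibroblasts, before they formed embryoid bodies in serum for 2 days, with 1 µg/mL doxycycline during the final 24 h. All 4 libraries came from doxycycline-treated cells, 2 of them from chromatin pulled down by an antibody against FLAG (M2) and 2 from chromatin before the pull-down (input). Binding was thus measured for an induced, tagged protein, and cells without doxycycline were not analysed here. The deposited list names no library and carries no score, so depth is unknown and no peak has a replicate error.

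Clustered protocadherins are cell-surface cadherin-like proteins best known from neurons, where each cell uses its own set of them to tell its branches from those of other cells. In the alpha and gamma groups each gene has its own promoter and first exon, which is joined to constant exons at the far end of the group, while each beta gene stands alone. Most of these promoters are chosen at random in a neuron, through distant enhancers, CTCF and cohesin, whereas the C-type genes at the ends of the alpha and gamma groups (Pcdhac and Pcdhgc) are used more uniformly.

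The gene spans showed this arrangement. The 14 alpha genes ran from Pcdha1 (gene 116731, start at 36930285) to Pcdhac2 (gene 353237, start at 37143678), and their ends lay within 1.24 kb of each other. The 21 gamma genes ran from Pcdhga1 (gene 93709, start at 37661775) to Pcdhgc5 (gene 93708, start at 37819546), with ends within 0.01 kb. The 22 beta genes between them, Pcdhb1 (gene 93872) to Pcdhb22 (gene 93893), were separate spans of 2.34 to 5.27 kb at 37264998 to 37521419. Pcdhgb8 is listed as a transcribed pseudogene and was left out. In the alpha and gamma groups the varying coordinate was used as the gene start and the common one as the shared end. The table gives no exons, so a peak cannot be placed in an exon or an intron.

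**Figure D1:**
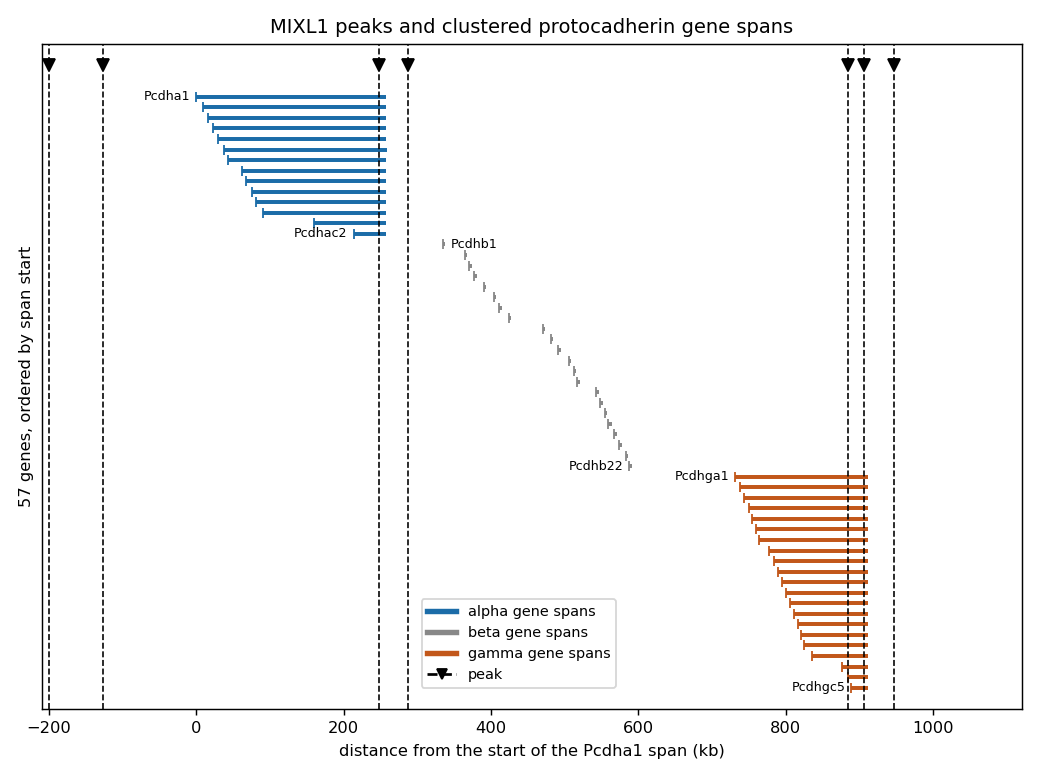
Spans of the 57 genes (horizontal bars, ordered by start, with a tick at the start) and the 7 peaks (triangles and dashed lines), by distance in kb from the start of Pcdha1. The alpha and gamma spans end together, 1 peak crosses all alpha spans, 1 crosses all gamma spans near their shared end and 1, beside the start of Pcdhgc4, crosses 19 gamma spans, and no peak lies among the beta genes.

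Within the alpha group there was 1 peak, at 37178442 to 37178856, 415 bp wide. It lay 8.80 kb before the shared end at 37187657 and beyond the start of the last alpha gene, so it crossed the spans of all 14 alpha genes. Just past the group, 28.5 kb beyond the last alpha end (that of Pcdha6) and 46.6 kb before Pcdhb1, lay the widest peak of the interval (37217396 to 37218425, 1030 bp). No clustered protocadherin span covered that peak, though the spans of the gene models Gm37013, Gm38666 and Gm38667 did. These models run from the alpha group to the shared gamma end. The alpha group has known enhancers, whose coordinates were not used here, and overlap of these peaks with them was not tested.

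The gamma group held 2 peaks. The first, at 37814305 to 37814694 (390 bp), ended 0.385 kb before the start of Pcdhgc4 (gene 93707), a C-type gene whose protein is tied to neuron survival. It crossed the spans of the 19 gamma genes that start further up, Pcdhga1 to Pcdhgc3. The second, at 37835751 to 37836700 (950 bp), lay 5.17 kb before the furthest shared end at 37841873 and crossed all 21 gamma spans. These peaks were 21.1 kb apart.

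No peak overlapped a beta gene. The beta spans lay 46.6 kb (Pcdhb1) to 295 kb (Pcdhb21) from the nearest peak, with a median of 210.1 kb, and the stretch between the peak beyond the alpha group and the first gamma peak was free of peaks for 596 kb. The whole beta group covers 0.256 Mb, for which 0 peaks allow a density of up to 11.7 per Mb by a limit of 3 counts, and 14.4 per Mb by the upper bound of the exact 95% Poisson interval. At the density of the rest of chromosome 18 it would hold 0.740 peaks, so fewer peaks than elsewhere could not be seen in a stretch of this size. Of the 255 gaps between neighbouring peaks of chromosome 18, 38 were longer than 596 kb.

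The other 3 peaks lay in the flanks. That at 36730309 to 36730910 (602 bp) was 3.49 kb from Cd14, the co-receptor gene for lipopolysaccharide, and only 0.024 kb inside the limit of the interval. That at 36802864 to 36803122 (259 bp) was 0.757 kb from the vault RNA gene Vaultrc5 and 3.20 kb from Zmat2, which encodes a zinc-finger protein of the spliceosome. The peak at 37877185 to 37877583 (399 bp) lay inside the formin gene Diaph1. The Diaph1 span lies just past the gamma group, and the peak was 33.6 kb from the nearer end of that span. Outside the interval the nearest peaks were 56.3 kb before it, over Apbb3, and 22.6 kb after it, with widths of 1492 and 434 bp.

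Counted by gene, 35 of the 57 spans (61.4%) had a peak, against 12.6% of the 21523 protein-coding genes on the autosomes and X. The 35 genes share 3 distinct peaks and are not separate observations, and nothing is read from the share. By group these were 14 of 14 alpha genes with 1 peak each, 0 of 22 beta genes, and 21 of 21 gamma genes, of which 19 had 2 peaks and Pcdhgc4 and Pcdhgc5 had 1. Among other genes with spans as short as those of the beta group, 3% had a peak over the span, and among those with spans in the range of the alpha and gamma genes (22.3 to 257 kb) it was 20.5%. On chromosome 18 as a whole it was 24.7% (126 of 511 genes, the 35 protocadherin genes among them). Within 1 kb of an end of the span, 1 of the 57 genes (Pcdhgc4) had a peak, against 3.59% of protein-coding genes.

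Most starts of the genes, where the separate promoters lie, were over 50 kb from a peak, as were most starts of other genes. Of the 57 starts, 3 (5.26%) were within 10 kb of a peak and 6 (10.5%) within 50 kb. For 17274 other protein-coding genes with a known strand, the shares were 8.88% and 29.6%. Among those with spans like the alpha and gamma genes, 9.47% were within 10 kb. Many of the 57 starts share a nearest peak, so nothing is read from these shares. The 3 within 10 kb were the gamma C-type genes, with 7.90 kb for Pcdhgc3, 0.385 kb for Pcdhgc4 and 4.85 kb for Pcdhgc5. These distances go to 2 sides of 1 peak, so they are 1 observation. The alpha C-type genes Pcdhac1 and Pcdhac2 had distances of 88.3 and 34.8 kb.

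The starts of the other classes were further away than those of the gamma C-type genes. The 12 alpha genes that are not C-type had start distances of 127 to 186 kb (median 161 kb), the beta genes 46.6 to 296 kb (median 210.1 kb), the 12 gamma A genes 48.7 to 153 kb (median 103 kb) and the 6 gamma B genes 62.7 to 134 kb (median 88.6 kb). The median over the other protein-coding genes was 109.8 kb, below these alpha and beta medians and above those of gamma A and gamma B. The 3 further starts within 50 kb were those of Pcdhac2, Pcdhb1 and Pcdhga12, the first or last of their classes in line. Neighbouring genes measure the distance to the same peak, which gives the steady slope from gene to gene, so the order of these distances is set by the order of the genes.

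**Figure D2:**
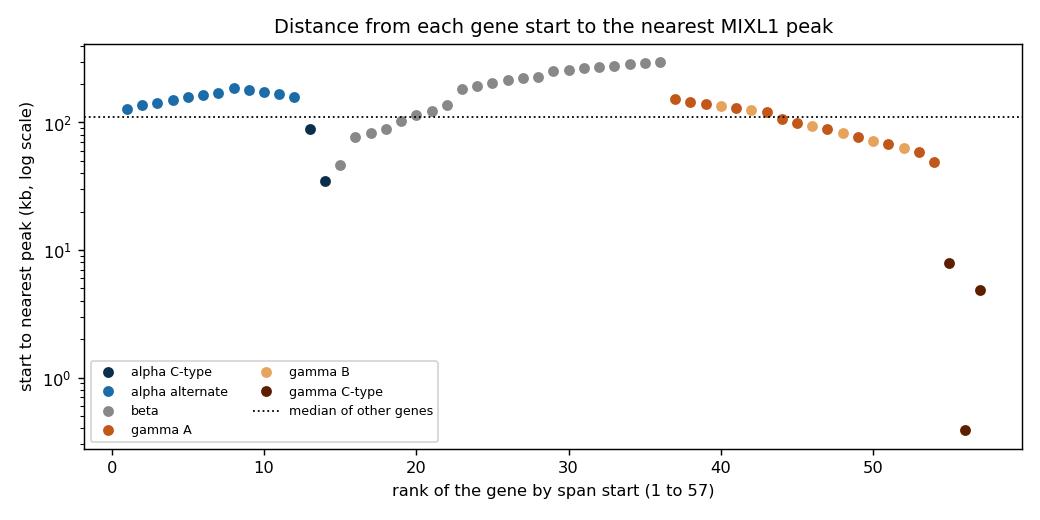
Distance from each gene start to the nearest peak in kb (log scale), with the 57 genes in order of their starts and coloured by class; the dotted line is the median of the other protein-coding genes, 109.8 kb. The 3 gamma C-type genes lie below 10 kb, and all beta genes lie between 46.6 and 296 kb.

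In most of the genes they crossed, the alpha and gamma peaks lay nearer to the shared end than to the start. With 0% at the start and 100% at the end of the span, the alpha peak was at 96.5% of Pcdha1 and at 79.5% of Pcdhac2, the shortest of the group, with a median of 95.4% over the 14 genes. The second gamma peak was at 96.9% of Pcdhga1 and 74.7% of Pcdhgc5 (median 95.1% over 21 genes). The gamma peak beside Pcdhgc4 ranged from 84.8% of Pcdhga1 to 22.8% of Pcdhgc3 (median 77.5% over 19 genes). In other genes with spans of like range, 6.99% of the 2147 pairs of a peak and a gene it lies in had the peak in the last 10% of the span, and 14.1% had it in the first 10%. Since 1 peak gives a position in every gene that shares the end, the alpha and gamma values stand for 3 peaks. A peak that crosses every span of a group lies past its last start, so it must fall late in the longer spans. Nothing is therefore read from these positions beside the shares in other genes.

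**Figure D3:**
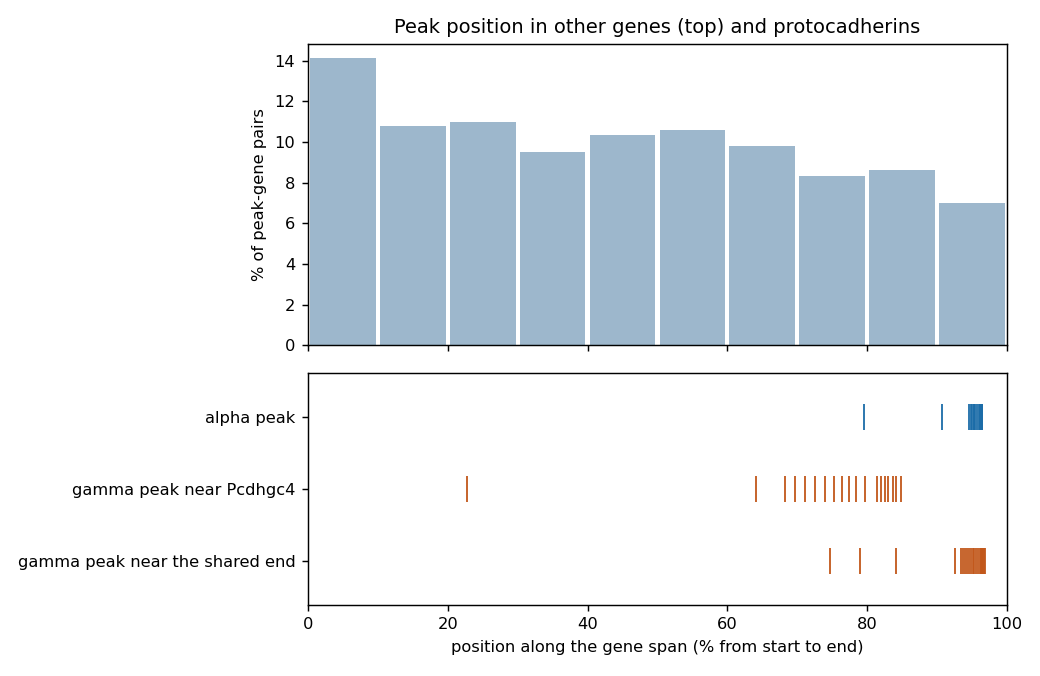
Top, percent of peak-gene pairs in each 10% of the gene from start to end, for 2147 pairs in other protein-coding genes with spans in the range of the alpha and gamma genes; bottom, the position of each of 3 peaks in every protocadherin gene it crosses (1 mark per gene). The share in other genes goes from 14.1% in the first bin to 6.99% in the last, and the marks of 2 of the 3 peaks crowd beyond 90%.

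The interval held 5.34 peaks per Mb (95% exact Poisson interval 2.15 to 10.996, counting error only), against 2.89 (2.54 to 3.27) on the rest of chromosome 18 and 3.43 (3.35 to 3.51) on the other autosomes without chromosome 12, which had 13.2 per Mb. The ratio to the rest of the chromosome was 1.85, with an interval of 0.744 to 3.81 from the counting error of the 7 peaks, which includes equal density. From the first to the last gene, without the flanks, the density was 4.39 per Mb (4 peaks, interval 1.20 to 11.2). The gamma group, with 2 peaks in 0.180 Mb, had 11.1 per Mb (1.34 to 40.1), and the alpha group, with 1 in 0.259 Mb, had 3.87 (0.0979 to 21.5). The intervals of the 3 groups overlap, and the counts cannot order them.

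**Figure D4:**
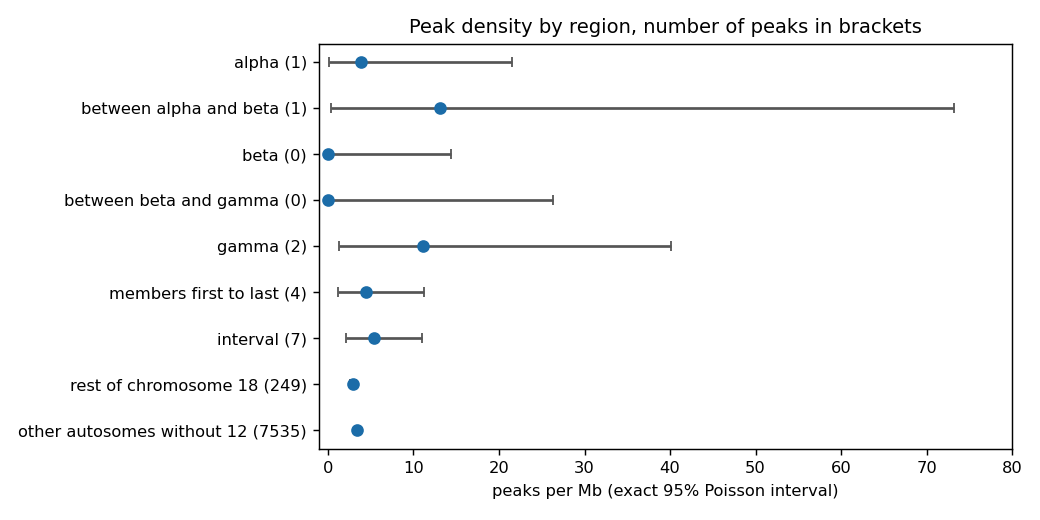
Peaks per Mb with exact 95% Poisson intervals for each gene group, the stretches between them, the genes from first to last, the interval with its flanks, the rest of chromosome 18 and the other autosomes without chromosome 12 (number of peaks in brackets). The 5.34 per Mb of the interval has an error bar that reaches below the 2.89 per Mb of the rest of the chromosome.

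Set beside stretches of the same length (1.31 Mb) laid end to end along the autosomes, the protocadherin interval held more peaks than the median stretch, which had 3. Of 1822 stretches, 25.2% held 7 or more peaks, and of the 1733 outside chromosome 12 it was 23.1%. On chromosome 18 it was 14 of 66, the interval included.

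**Figure D5:**
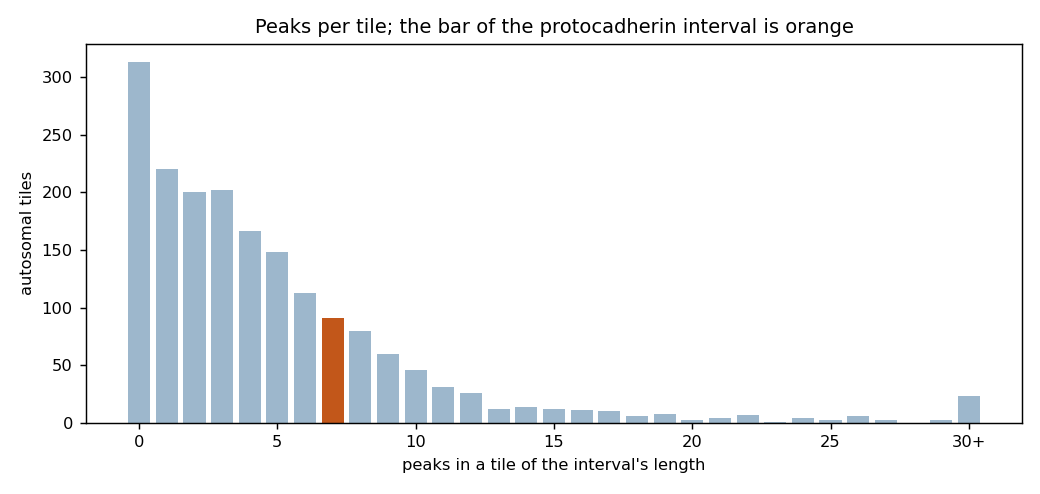
Number of autosomal stretches of 1.31 Mb (of 1822) by the number of peaks they hold, with all stretches of 30 or more in the last bar; the orange bar marks 7, the number in the protocadherin interval. Most stretches hold fewer than 7 peaks, and 25.2% hold 7 or more.

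Width, which the choice of the peaks did not use, ranged from 259 to 1030 bp over the 7 peaks, with a median of 415 bp against 487 bp over the list and 469.5 bp on chromosome 18. The peaks beyond the alpha group (1030 bp) and near the shared gamma end (950 bp) were wider than most, since 88.4% and 85.8% of the list were no wider. The peak within the alpha genes and that beside Pcdhgc4 fell below the middle, at 37.9% and 33.2%, and the 259 bp peak near Vaultrc5 at 5.25%. Spacing, unlike width, comes from the positions that chose the peaks. All gaps beside the 7 peaks, flank peaks included, were longer than 10 kb. Neighbours as close as 10 kb were found for 10.9% of chromosome 18 peaks and 30.6% of autosomal ones, chromosome 12 included. At the share of chromosome 18, 7 peaks need not include any with such a neighbour, so nothing is read from their absence. Gaps between the 7 peaks ran from 21.1 to 596 kb.

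Of the 18 other protein-coding genes in the interval, 4 (22.2%) had a peak over the span, against 24.7% on chromosome 18 (protocadherins included) and 12.6% over the autosomes and X. Within 1 kb of an end 0 of the 18 had one, against 3.59% of protein-coding genes, a share at which 18 genes need not hold any. The 4 were Diaph1 and the gene models Gm37013, Gm38666 and Gm38667. These models start in the alpha group, end at the shared gamma end and each take in the 4 peaks between Pcdha1 and Pcdhgc5. They are not separate observations, so nothing is read from the 22.2%. The pair of genes between the beta and gamma groups, Slc25a2 (a mitochondrial carrier) and Taf7 (a subunit of TFIID), lay 176 and 170.1 kb from a peak, and Hdac3, a histone deacetylase gene past Diaph1, lay 59.4 kb away.

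The Ugt1a genes on chromosome 1, which encode glucuronidating enzymes and also join separate first exons to shared ones, had 1 peak across their spans, at 88103776 to 88104029, 116 kb before their furthest end. It lay among the first exons' genes, at 29.5% of the longest span, and crossed 5 of 9 spans. With the same flanks of 200 kb, the Ugt1a interval held 4 peaks (7.08 per Mb, 1.93 to 18.1), and those of the Hoxa, Hoxb, Hoxc and Hoxd clusters held 5, 4, 5 and 2. In the Hox clusters 3 of 39 genes had a peak over the span, against 12.6% of protein-coding genes on the autosomes and X. This was not adjusted for span length. These clusters were set beside the protocadherins after the peaks' places were known, and the Poisson intervals of their densities overlap that of the protocadherin interval.

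Relatives and partners of the clustered protocadherins were listed by function, and a gene was counted when a peak lay over its span or within 5 kb, as it did for 16.3% of protein-coding genes. Long genes have more room for a peak, and the shares were not adjusted for length. The protocadherins that stand outside the clusters, which take part in cell sorting and adhesion, gave 3 of 12 genes (25%, median span 75.1 kb), with 1 peak each at Pcdh1, Pcdh12 and Pcdh7. Pcdh1 and Pcdh12 are neighbours of the clusters on chromosome 18 (38185914 to 38212048 and 38267092 to 38284401), and the 300 kb after the interval held 5 peaks, among them one of 996 bp at 38216737 to 38217732, 4.69 kb from Pcdh1, and one of 1431 bp at 38278556 to 38279986 over Pcdh12 and Rnf14.

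Large atypical cadherins, which act in planar polarity and tissue growth, gave 5 of 9 genes (55.6%, median span 119 kb), with 2 peaks each at Celsr1, Dchs1 and Fat1. Classical cadherins, the adhesion molecules of cell junctions, gave 6 of 17 (35.3%, median span 153 kb), led by Cdh22 with 7 peaks, Cdh4 with 4 and Cdh6 with 2. The epithelial gene Cdh1 had its nearest peak 95.02 kb away and the neural and mesodermal gene Cdh2 112 kb away.

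Genes of promoter choice at the protocadherin clusters (CTCF, cohesin and its loaders, DNA methyltransferases and silencing factors) gave 4 of 20 (20%, median span 49.6 kb). They were led by Dnmt3a, a de novo DNA methyltransferase gene on chromosome 12, with 3 peaks, the cohesin gene Stag1 with 2 and Smchd1, which encodes a silencing factor of these clusters, with 1. Ctcf itself was 152 kb from a peak. Cytoplasmic partners of the proteins gave 5 of 16 (31.2%, median span 85.6 kb) with 1 peak each, among them Abi2 and Cyfip1 of the WAVE complex and the actin regulator gene Marcks, whose peak lay 0.068 kb from an end of the span. The median gene had 0 peaks in each of these lists except the large atypical cadherins, where it had 1.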

How the data were processed

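All libraries enter through 1 deposited peak list, which holds only the position of each peak on mm10. The submitters' processing notes name MACS2, SAMtools, Bowtie2 and CASAVA 1.8.2. For threshold, filters, input and pooling, the authors' choices are not given in the sources, beyond unexplained abbreviations in the name of the list. Positions were converted to 1-based ones and set against RefSeq gene spans of GRCm38.p6, without genes listed in the first 3 Mb of a chromosome. A peak counted with at least 1 base of overlap. Strand for the other genes came from the RefSeq promoter table, which had no entry for the 57 protocadherin genes. Chromosome length ran from 3 Mb to the last gene end. Intervals are exact Poisson intervals and no test was run, since samples have no values of their own. Genes were named by rule: members with a peak, the first and last of each group, neighbours with a peak, and up to 3 genes per list, ties in alphabetical order. Apbb3, Rnf14, Pcdhgb8, Slc25a2, Taf7, Hdac3, Cdh1, Cdh2, Ctcf and the Ugt1a and Hox clusters were added outside it. The members and lists were chosen with earlier results of these data known. Overlap, distance and position steps were tested on simulated data. The tools were pandas 2.3.3, scipy 1.17.1 and numpy 2.4.6 in Python 3.11.15, with matplotlib 3.10.9 for plots.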

Additional observations from a re-analysis of the deposited data

How the results depend on the processing

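Without flanks the locus held 4 peaks, with flanks of 500 kb 15, and with the wider 50% of the list 3. The wider peaks left 21 protocadherin genes (the gamma group) with a peak over the span, since the alpha peak and the peak beside Pcdhgc4 are narrower than the list's median. A gene end within 5 kb of a peak was found for 2 genes in place of 1. This count depends on the cut-off, since the ends of all 21 gamma genes lay 5.163 to 5.173 kb from a peak. Flanks of 50 or 100 kb, counting by peak centre, spans widened by 1 or 5 kb and merging of peaks within 1 kb moved none of these counts by over 1.5 times. With other flanks the density ranged from 4.39 per Mb (none) to 7.85 per Mb (500 kb), within its counting interval. With the wider 50% of the list, which lowers every density, it was 2.29 per Mb against 1.34 on the rest of chromosome 18. No paired analysis was possible because the libraries share 1 peak list, and for the same reason no library could be left out.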
